A study of Mus musculus with 6 samples.

Results

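Pancreatic β-cells differ from one another in maturity and in what they carry at their surface, and 9 genes that mark such differences (*Ucn3*, *Npy*, *Cd9*, *Cd24a*, *Cd81*, *St8sia1*, *Srf*, *Rbp4* and *Th*) were followed in islet cells sorted by a reporter of *Wnt4* expression. All probes of the array whose RefSeq transcript belongs to 1 of these genes were taken, which gave 13 probes of 56605. *Cd24a*, *Cd81*, *St8sia1* and *Th* had more than 1 probe. The rule used their published use as markers and no measured value, but the choice was made with earlier results of these data known. The set made up 9 of 45616 genes and transcripts on the array. All 9 had a probe well above background on all 6 arrays, and 11 of the 13 probes were.

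The islets came from postnatal day 1 (P1) *Wnt4eGFPCre;mTmG* pups bred on C57BL/6J. By the study's methods, the pups carried the *Wnt4* allele with EGFP/cre (tm2(EGFP/cre)Svo) and the mTmG reporter at *Rosa26*, so that Cre driven by *Wnt4* switched a cell and its progeny to membrane GFP (mGFP) for good. The mGFP signal therefore records that a cell has expressed *Wnt4*, not how much it expressed at birth. A legend of the study instead names the side low in *Wnt4* as pups without this allele, and the labels give only the side of the gate, so whether all *Wnt4*low pools came from carriers was not settled here. Cells were sorted by FACS into mGFP-positive cells (*Wnt4*hi, replicates 2, 3 and 4) and mGFP-negative cells (*Wnt4*low, replicates 1, 3 and 4), each from the pooled islets of 4 pups for replicates 1, 2 and 3 and of 3 pups for replicate 4. The gate did not select for β-cells, so each population holds whatever islet and stromal cells fell on its side of the mGFP gate.

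*Ucn3* is a peptide that β-cells switch on as they mature after birth, whereas *Npy*, a neuropeptide, is made by β-cells around birth and is silenced later. CD9 and the ganglioside made by the sialyltransferase ST8SIA1 have been used to sort human β-cells into subsets, CD81 has been used to mark immature β-cells and CD24 to mark cells on the way to the endocrine fate, and *Srf*, *Rbp4* and *Th* belong to genes described as varying between β-cells. Most of these genes are not made by β-cells alone: tetraspanins and *Srf* are expressed widely, *Rbp4* is abundant in δ-cells, and *Npy* and *Th* are also found in nerves.

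The arrays measured 59305 spots that are not controls, of which 70.5% to 79.5% were well above background in *Wnt4*hi and 73.1% to 76.9% in *Wnt4*low cells. Values are log2 normalized intensities. Each difference is the *Wnt4*hi mean less the *Wnt4*low mean on that scale, tested in limma, and an adjusted p is a Benjamini-Hochberg value over all genes and transcripts. *Wnt4* itself was higher on all 3 *Wnt4*hi arrays (10.53 to 11.20) than on the *Wnt4*low arrays (9.31 to 10.11), by 1.08 (limma, unadjusted p = 0.00694, adjusted p = 0.210). The list of endothelial markers had a summed normalized intensity of 5256 to 7132 in *Wnt4*hi and of 37072 to 68231 in *Wnt4*low cells, and a list of α-cell markers had sums of 81481 to 124140 against 13923 to 67874, so that markers of other cell types differed between the populations. The part of these cell types in the values of the 9 genes was not tested. In such bulk samples, fewer cells of a type and less RNA per cell cannot be told apart.

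Among the 9 genes, *Rbp4* and *Srf* were higher in *Wnt4*hi cells, and *Cd24a* and *Cd81* were higher in *Wnt4*low cells, at the unadjusted threshold of 0.05. These 4 genes, alone among the 9, had no overlap between *Wnt4*hi and *Wnt4*low arrays. *Ucn3*, *Npy*, *Cd9*, *St8sia1* and *Th* did not pass. Over all genes and transcripts, 10.6% passed this threshold (5.06% higher in *Wnt4*hi and 5.53% higher in *Wnt4*low cells). Arrays did not overlap for 16.1% of them, with *Wnt4*hi above for 9.63% and *Wnt4*low above for 6.44%. After adjustment none of the 9 passed in limma (0 of 9), against 0.441% of all genes and transcripts, 0.0351% higher in *Wnt4*hi and 0.406% higher in *Wnt4*low cells. That share stands for 201 genes and transcripts, of which the count fell to between 0 and 9 when any 1 array was left out. By single probes, 5 of the 13 passed the unadjusted threshold, against 11% of all probes, and 0 the adjusted one, against 0.477%. In all, 6 of the 9 differences were above 0, as were 28994 of the 45616 genes and transcripts, a like share. The median was 0.36 over the 9 genes and 0.07 over all genes and transcripts. With so few arrays, the smallest two-sided p of an exact permutation test for 1 gene would be 0.1.

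**Figure D1:**
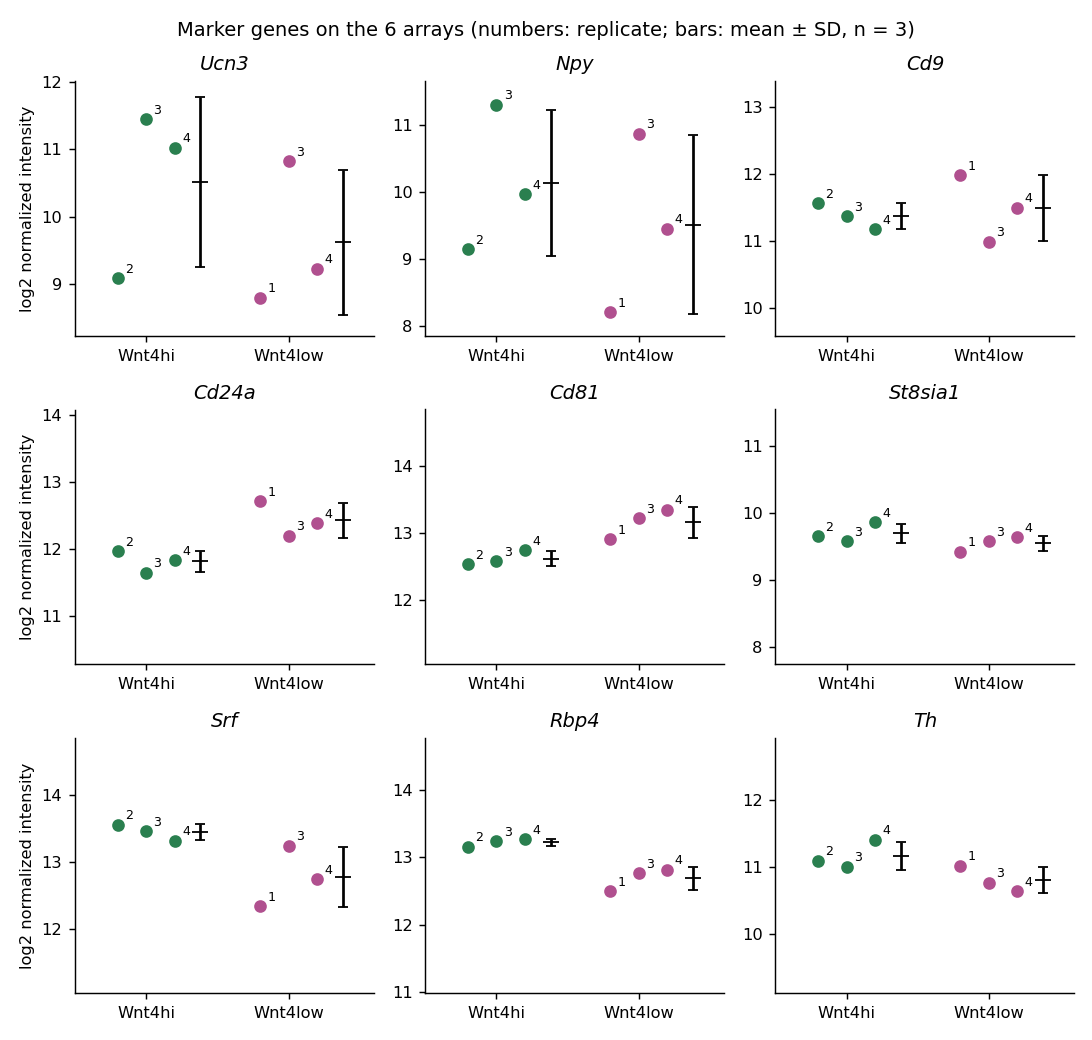
Log2 normalized intensity of each of the 9 genes on the 3 *Wnt4*hi (green) and 3 *Wnt4*low (purple) arrays, numbered by replicate, with the mean ± SD of each population, over the same log2 range in all panels. *Rbp4* and *Srf* lie above and *Cd24a* and *Cd81* below the other population on every *Wnt4*hi array, whereas *Ucn3* and *Npy* spread over more than 2 log2 units within a population.

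Both peptides of the set varied more between pools of the same population than between the populations. *Ucn3* had log2 values of 9.08, 11.45 and 11.03 in *Wnt4*hi replicates 2, 3 and 4 and of 8.79, 10.83 and 9.22 in *Wnt4*low replicates 1, 3 and 4. *Wnt4*hi replicate 2 thus lay with the low *Wnt4*low arrays, and *Wnt4*low replicate 3 lay with the high *Wnt4*hi arrays. The difference was 0.90 with a 95% confidence interval of −0.995 to 2.80 (limma, adjusted p = 0.782). The scanner intensities behind these values ran from 505.5 to 3278 in *Wnt4*hi and from 471 to 1778 in *Wnt4*low cells, over local backgrounds of 29 to 33. Without *Wnt4*hi replicate 2 the difference in *Ucn3* was 1.62 and passed the unadjusted threshold (limma, unadjusted p = 0.0446, adjusted p = 0.457). It was 0.44 without *Wnt4*hi replicate 3, 0.49 without *Wnt4*low replicate 1 and 1.51 without *Wnt4*low replicate 3, and passed in none of these.

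*Npy* was 9.15, 11.31 and 9.97 in *Wnt4*hi replicates 2, 3 and 4 and 8.21, 10.88 and 9.46 in *Wnt4*low replicates 1, 3 and 4. The array of number 3 was the highest of its population for both genes, and *Wnt4*low replicate 1 was the lowest of all 6 for both. The difference in *Npy* was 0.63 (95% confidence interval −1.34 to 2.59, limma, adjusted p = 0.862), and it was close to 0 without *Wnt4*low replicate 1 (−0.024) or *Wnt4*hi replicate 3 (0.047). It was 1.12 without *Wnt4*hi replicate 2, 1.31 without *Wnt4*low replicate 3 and 1.46 with the authors' normalized table (unadjusted p = 0.0903), and passed in none of these. Over the 6 arrays, which share 1 slide, *Ucn3* and *Npy* had a Pearson r of 0.91 and a Spearman rho of 0.94, and r was 0.82 over the 4 arrays that remained without *Wnt4*hi replicate 3 and *Wnt4*low replicate 1, the arrays farthest from the median of *Ucn3*. The spread within the populations was 1.17 (pooled SD) for *Ucn3* and 1.22 for *Npy*, larger than for 99.5% and 99.6% of 28878 genes and transcripts well above background on every array, whose median was 0.30. The other 7 genes ranged from 0.13 for *Rbp4* and *St8sia1* to 0.37 for *Cd9*.

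None of the measured receptors of these peptides passed. Of 6 genes of the urocortin and corticotropin-releasing hormone (CRH) system, 0 passed the unadjusted threshold, and *Ucn*, *Ucn2* and *Crh* were well above background on none of the arrays. *Crhr2*, the receptor to which urocortin 3 binds, differed by 0.20 (limma, adjusted p = 0.798) and *Crhr1* by −0.10 (adjusted p = 0.859), while its other probe gave 0.15. Of 8 genes of the neuropeptide Y system, 2 passed, both with more in *Wnt4*hi cells. These were the hormone *Ppy* (1.22, adjusted p = 0.0826), which marks PP cells, and *Dpp4* (1.02, adjusted p = 0.428), a peptidase that trims such peptides. The receptor *Npy1r* differed by 0.18, while *Npy5r* and *Npy6r* stayed near background throughout.

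At the cell surface, *Cd24a* and *Cd81* were lower in *Wnt4*hi cells, and *Cd9* and *St8sia1* did not pass. *Cd24a*, a glycoprotein anchored in the membrane by a lipid, was 11.97, 11.65 and 11.84 in *Wnt4*hi replicates 2, 3 and 4 and 12.72, 12.21 and 12.39 in *Wnt4*low replicates 1, 3 and 4. All *Wnt4*hi arrays lay below all *Wnt4*low arrays, by 0.62 ± 0.18 (SE) on average, which is 1.53-fold (limma, unadjusted p = 0.0141, adjusted p = 0.287). The dimmer probe of *Cd24a* gave −0.41 (unadjusted p = 0.118), but *Wnt4*hi replicate 3 reached 11.25 and overlapped with *Wnt4*low replicate 3 at 11.03. Both probes had a Pearson r of 0.72 over the 6 arrays. Without *Wnt4*hi replicate 3 the main probe differed by −0.53 and no longer passed the unadjusted threshold (limma, unadjusted p = 0.0507), nor did it pass with the fixed replicate block (−0.55, unadjusted p = 0.0693).

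CD81 and CD9 are tetraspanins, membrane proteins that gather integrins and other partners into patches. *Cd81* was 12.54, 12.58 and 12.75 in *Wnt4*hi and 12.91, 13.23 and 13.35 in *Wnt4*low cells, in the same order of replicates. The populations did not overlap, and *Wnt4*low was higher by 1.45-fold (−0.54 ± 0.16 (SE) on the log2 scale, limma, unadjusted p = 0.0162, adjusted p = 0.304). The dimmer probe of *Cd81* gave −0.70 (unadjusted p = 0.0188), again without overlap, and followed the main probe with an r of 0.95. Of the 4 genes with more than 1 probe, only *Cd81* passed by both. Without *Wnt4*hi replicate 2 or 3 the difference was −0.50 and −0.52, with unadjusted p of 0.0515 and 0.0506.

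*Cd9* was 11.57, 11.37 and 11.18 in *Wnt4*hi and 11.98, 10.995 and 11.50 in *Wnt4*low cells. The *Wnt4*low arrays enclosed all *Wnt4*hi arrays, and the difference of −0.12 had a 95% confidence interval of −0.78 to 0.54 (limma, adjusted p = 0.928). It was 0.13 without *Wnt4*low replicate 1.

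*St8sia1* encodes the enzyme that adds a second sialic acid to the ganglioside GM3 and so makes GD3. Its brighter probe read 9.65, 9.58 and 9.86 in *Wnt4*hi and 9.43, 9.58 and 9.64 in *Wnt4*low cells, a difference of 0.15 (95% confidence interval −0.20 to 0.49, limma, adjusted p = 0.809). The dimmer probe was well above background on 2 arrays of each population and scattered from 6.90 to 9.55 in *Wnt4*hi and from 7.001 to 9.18 in *Wnt4*low cells. The probes of *St8sia1* did not follow each other (r of 0.06 over 6 arrays).

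**Figure D2:**
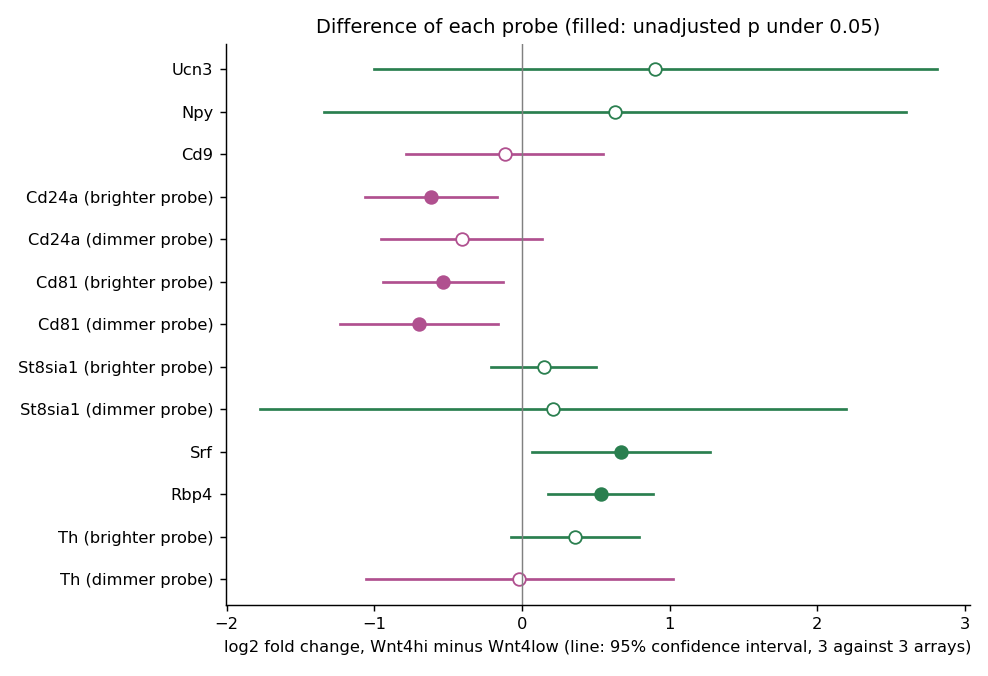
Difference of each of the 13 probes with its 95% confidence interval from limma, on the log2 scale, with filled points where the unadjusted p was under 0.05. The intervals of both probes of *Cd81* and of 1 of *Cd24a* lie wholly below 0, those of *Srf* and *Rbp4* lie wholly above 0, and the intervals of *Ucn3*, *Npy* and the dimmer probe of *St8sia1* are the widest.

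Other tetraspanins moved in both directions. Of 22 tetraspanin genes besides *Cd9* and *Cd81*, 10 passed the unadjusted threshold, 3 with higher and 7 with lower values in *Wnt4*hi cells, and the median was 0.10 (between −0.06 and 0.14 under the alternatives). *Tspan18* differed by −2.78 and passed the adjustment (limma, adjusted p = 0.0435), its other probe gave −2.74, and *Tspan6* differed by −1.68 (adjusted p = 0.172). Among 9 genes whose proteins bind or work with tetraspanins, 1 was higher and 5 were lower, with a median of −0.46. *Ifitm3*, an antiviral membrane protein, differed by −2.18 (adjusted p = 0.0710), and the epithelial adhesion gene *Epcam* was higher by 1.19 (adjusted p = 0.366). The direct partners of CD9 and CD81 gave −1.05 for *Ptgfrn* (adjusted p = 0.540) and 0.18 for *Igsf8* (adjusted p = 0.850), and neither passed.

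In ganglioside synthesis, 3 of 11 genes were higher and 1 was lower in *Wnt4*hi cells (median 0.45, but 0.089 without *Wnt4*hi replicate 3 and 0.29 with the scanner's processed intensity). *St3gal5*, which makes the GM3 that ST8SIA1 uses, was 12.97, 13.18 and 13.15 in *Wnt4*hi and 12.57, 12.91 and 12.47 in *Wnt4*low cells, higher by 0.45 without overlap (limma, unadjusted p = 0.0330, adjusted p = 0.404). *B4galnt1*, which competes for the same substrate, differed by 0.01. *St6galnac5* was higher by 1.84 (adjusted p = 0.415) but well above background on 1 *Wnt4*low array, and *St3gal2* differed by −1.41 (adjusted p = 0.174), whereas another probe of *St3gal2* gave −0.19.

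*Srf* encodes serum response factor, which binds CArG boxes in genes of the actin cytoskeleton and of the immediate early response. Its own promoter carries such sites. The 250 bases before its start are shown because *Srf* and its targets were measured side by side, with CArG boxes in capitals (RefSeq, GRCm38.p6, chr17:46556163-46556412, minus strand):
*Srf*: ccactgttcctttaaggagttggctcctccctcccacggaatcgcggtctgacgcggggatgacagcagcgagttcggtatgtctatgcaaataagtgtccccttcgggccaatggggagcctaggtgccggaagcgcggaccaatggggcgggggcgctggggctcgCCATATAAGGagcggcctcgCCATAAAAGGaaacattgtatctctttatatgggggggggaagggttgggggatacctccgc
There were 2 matches, each of which fits the CArG box on either strand and overlaps neither the other nor a TGACGTCA, beginning 82 and 62 bases before the start. Among the promoters of all genes and transcripts in the table (32851 of the same length), 1.47% held a CArG box. Of the 9 promoters found for 8 of the 9 genes, 1 held it. *Cd24a* had no entry.

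*Srf* was 13.55, 13.46 and 13.32 in *Wnt4*hi replicates 2, 3 and 4 and 12.34, 13.24 and 12.74 in *Wnt4*low replicates 1, 3 and 4. All *Wnt4*hi arrays lay above, but *Wnt4*low replicate 3 came close to *Wnt4*hi replicate 4, and the *Wnt4*low arrays spread more widely (SD 0.45, n = 3) than the *Wnt4*hi arrays (SD 0.12, n = 3). The difference was 0.67 ± 0.24 (SE), or 1.59-fold (limma, unadjusted p = 0.0330, adjusted p = 0.404). It passed the unadjusted threshold without *Wnt4*low replicate 3 (0.90, unadjusted p = 0.00516) and in no other fit with 1 array left out. These gave 0.61, 0.66 and 0.73 without *Wnt4*hi replicates 2, 3 and 4 (limma, unadjusted p = 0.0850, unadjusted p = 0.0772 and unadjusted p = 0.0530), and 0.45 and 0.65 without *Wnt4*low replicates 1 and 4 (unadjusted p = 0.0782 and unadjusted p = 0.0789). *Srf* was 0.43 with the authors' normalized table (unadjusted p = 0.138) and 0.40 with the fixed replicate block (unadjusted p = 0.175), and it also did not pass with the scanner's processed intensity (0.57, unadjusted p = 0.0581) or median centring (0.56, unadjusted p = 0.0541).

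No gene on a list of known SRF targets passed in the direction of *Srf*. Of 18 such genes, 6 passed the unadjusted threshold, all of them lower in *Wnt4*hi cells, and 16 of the 18 differences were below 0 (median −0.29). *Ccn2*, a matrix protein of the CCN family, was 10.16, 9.53 and 10.42 in *Wnt4*hi and 12.43, 11.90 and 12.49 in *Wnt4*low cells, a difference of −2.24 (limma, adjusted p = 0.0491). Its relative *Ccn1* differed by −2.04 (adjusted p = 0.0702). Many of these genes are strongly expressed in stromal and vascular cells, and the lists of markers for those cells were lower in *Wnt4*hi cells in the same samples. The part of the cell types in the target genes was not tested. Of 6 cofactors 1 passed, *Elk3*, which differed by −1.60 (adjusted p = 0.0275). *Mrtfa* and *Mrtfb*, the actin-regulated coactivators, differed by −0.24 and −0.14 (adjusted p = 0.752 and 0.877, with other probes of *Mrtfb* from −0.75 to 0.40), and *Myocd*, the coactivator of smooth muscle, was well above background on none.

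*Rbp4*, which encodes the carrier of retinol in blood, had the lowest p of the 9 genes. It was 13.16, 13.25 and 13.27 in *Wnt4*hi and 12.49, 12.76 and 12.82 in *Wnt4*low cells. The *Wnt4*hi arrays lay within 0.11 of each other and above all *Wnt4*low arrays. The difference was 0.53 ± 0.14 (SE), or 1.45-fold (limma, unadjusted p = 0.00894, adjusted p = 0.234), and it passed the unadjusted threshold in all 6 fits with 1 array left out (0.43 to 0.60). It did not pass with the scanner's processed intensity (0.46, unadjusted p = 0.0663) or with the fixed replicate block (0.47, unadjusted p = 0.108).

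*Rbp4* is also abundant in δ-cells, and *Sst* and *Hhex*, which define those cells, were higher in *Wnt4*low cells. The part of δ-cells in the *Rbp4* values was not tested. *Sst*, the hormone somatostatin, was 13.29, 13.61 and 13.79 in *Wnt4*hi and 14.35, 13.97 and 14.06 in *Wnt4*low cells, a difference of −0.56 (unadjusted p = 0.0238, adjusted p = 0.356). *Hhex*, the δ-cell transcription factor, differed by −1.75 (adjusted p = 0.0920). Of 18 measured genes of retinol transport and metabolism, 7 passed the unadjusted threshold, all of them lower in *Wnt4*hi cells, and the median was −0.41 (−0.45 with *Aldh1a3* and *Cyp26a1* at their bounds and without *Lrat*, which was not well above background). It was −0.23 without *Wnt4*low replicate 4 and −0.24 with the authors' normalized table. The retinoic acid receptor *Rarg* differed by −1.97 (adjusted p = 0.148) and the cellular retinol-binding *Rbp7* by −1.76 (adjusted p = 0.0920). *Aldh1a3*, which makes retinoic acid, was at least 1.61-fold higher in *Wnt4*low cells, since no *Wnt4*hi array had it well above background (adjusted p = 0.145). *Ttr*, which carries RBP4 in blood and is made by α-cells, gave 1.41 with arrays that did not overlap (unadjusted p = 0.0629, adjusted p = 0.511), and the RBP4 receptor *Stra6* gave 0.17 (adjusted p = 0.768).

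*Th* encodes tyrosine hydroxylase, the first and limiting enzyme of catecholamine synthesis. Its promoter has a full cyclic AMP response element (TGACGTCA, in capitals, the same on both strands). It is printed to set beside the *Srf* promoter, with 250 bases before the start (RefSeq, GRCm38.p6, chr7:142899996-142900245, minus strand):
*Th*: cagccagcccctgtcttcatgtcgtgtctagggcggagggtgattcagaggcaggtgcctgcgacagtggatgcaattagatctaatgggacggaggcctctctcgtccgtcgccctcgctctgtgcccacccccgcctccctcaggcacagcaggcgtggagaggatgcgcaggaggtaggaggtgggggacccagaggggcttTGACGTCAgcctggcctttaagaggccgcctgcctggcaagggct
The match begins 45 bases before the start and overlaps no CArG box. This element was found in 1.55% of all promoters of the same length, and in 1 of the 9 promoters of the set.

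The brighter probe of *Th* was 11.09, 11.002 and 11.40 in *Wnt4*hi and 11.01, 10.76 and 10.64 in *Wnt4*low cells. *Wnt4*low replicate 1 lay just above *Wnt4*hi replicate 3, so the populations just overlapped. The difference was 0.36 (95% confidence interval −0.06 to 0.79, limma, unadjusted p = 0.0827, adjusted p = 0.560). The dimmer probe gave −0.02, was well above background on 3 *Wnt4*hi and 2 *Wnt4*low arrays, and had an r of 0.30 with the brighter one.

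Of 16 genes of catecholamine synthesis and handling, 5 passed the unadjusted threshold, all of them higher in *Wnt4*hi cells, and the median was 0.24. The vesicular monoamine transporter *Slc18a1* was 11.34, 10.11 and 9.95 in *Wnt4*hi and 8.26, 9.27 and 8.35 in *Wnt4*low cells, higher by 1.84 (limma, unadjusted p = 0.00623, adjusted p = 0.201), and its other probe gave 1.75. *Ddc*, the enzyme that acts after TH, was higher by 1.33 (adjusted p = 0.365), although *Wnt4*low replicate 3 overlapped and its other probe gave 0.38. *Slc18a2*, the other vesicular transporter, gave −0.55 (adjusted p = 0.808) and *Dbh*, which turns dopamine into noradrenaline, gave 0.30 (adjusted p = 0.767), and neither passed. Of 12 neural and Schwann markers 4 passed, all lower in *Wnt4*hi cells. The neuronal marker *Stmn2* was at least 8.01-fold higher in *Wnt4*low cells, with no *Wnt4*hi array well above background (adjusted p = 0.0275).

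**Figure D3:**
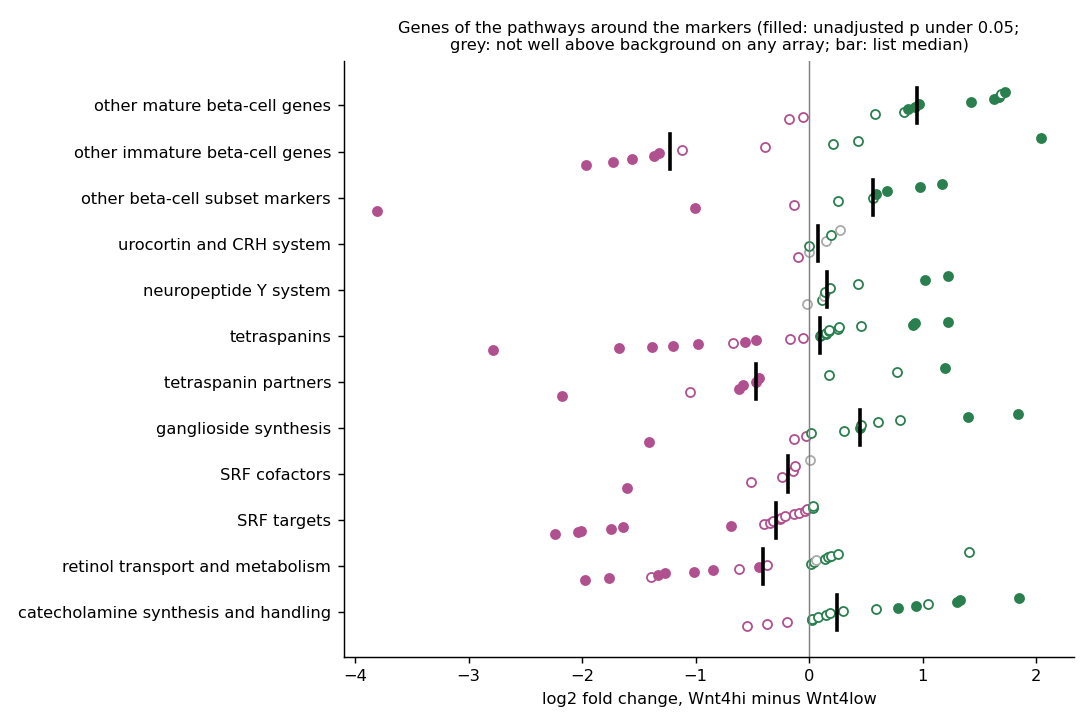
Log2 fold change of every gene of the lists around the 9 markers, 1 row per list, with filled points where the unadjusted p was under 0.05, grey points for genes that no array had well above background, and a bar at the list median. The other mature β-cell genes lie mostly to the right (median 0.95), and the SRF targets (median −0.29) and retinol genes (median −0.41) mostly to the left.

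The 9 genes can be set beside other genes used for the same purpose. Of 12 other genes of mature β-cells, 7 passed the unadjusted threshold, all of them higher in *Wnt4*hi cells (median 0.95), and 0 passed the adjustment in limma. The zinc transporter *Slc30a8* was higher by 1.73 (adjusted p = 0.416) and the glucose transporter *Slc2a2* by 1.68 (adjusted p = 0.289), but *Mafa*, a transcription factor of mature β-cells, gave −0.05 (adjusted p = 0.952). Of 10 genes of immature β-cells, 1 was higher and 5 were lower, with a median of −1.22 (−0.81 with *Hk2*, which was not well above background in *Wnt4*hi cells, at its bound, and −0.41 with the authors' normalized table). *Hk1*, a hexokinase repressed in mature β-cells, differed by −1.97 (adjusted p = 0.214), whereas another probe of *Hk1* gave 0.05. Several genes of this list, such as *Pdgfra*, are also abundant in stromal cells.

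On single arrays, the mature β-cell genes had a list median above 0 on all 3 *Wnt4*hi arrays (0.37 to 0.68 from the mean of the 6 arrays), including *Wnt4*hi replicate 2 (0.59), on which *Ucn3* was at −0.99 from its own mean. Of the 12 genes of the list, *Trpm5*, *Esrrg* and *Mafa* also lay below their own means on that array, and the other 9 lay above. Of 9 other genes that mark β-cell subsets, 4 were higher and 2 were lower, with a median of 0.56, which was 0.27 without *Wnt4*low replicate 1, 0.31 with the mean of a gene's probes and 0.35 with the fixed replicate block. *St8sia4*, which makes polysialic acid, differed by −3.81 (limma, adjusted p = 0.0974) but was well above background on 1 *Wnt4*hi array, and its other probe gave −2.30.

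Cell type markers moved with the populations. Of 12 endothelial markers, 11 were lower in *Wnt4*hi cells at the unadjusted threshold, 8 of them after adjustment (median −3.46, or −3.31 with *Tek* and *Tie1* at their bounds), led by *Robo4* (−4.49, adjusted p = 0.00858). Of 11 mesenchymal and pericyte markers, 8 were lower (median −1.18, or −1.80 without *Wnt4*hi replicate 2, summed intensity 36136 to 68713 against 85557 to 113430), of 11 leukocyte markers 4 were lower, of 10 acinar and 7 measured erythroid markers 2 each were lower, and of 10 ductal markers 3 were higher and 1 was lower. Of 8 β-cell markers 5 were higher (median 1.16, or 0.76 both without *Wnt4*low replicate 1 and with the fixed replicate block, summed intensity 317440 to 326820 against 189030 to 285500), of 8 α-cell markers 4 were higher (median 1.77, or 1.09 without *Wnt4*low replicate 1), and *Ghrl*, the hormone of ε-cells, was higher by 2.10 (adjusted p = 0.0491).

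The single arrays show how the 9 genes ran beside these lists. *Wnt4*low replicate 1, the lowest array for *Ucn3*, *Npy*, *St8sia1*, *Srf* and *Rbp4* and the highest for *Cd9* and *Cd24a*, had the lowest list medians of β-cell (−0.75) and α-cell markers (−2.33) and the highest of endothelial markers (2.08). *Wnt4*hi replicate 2, which had the lowest *Ucn3* and *Npy* of its population, had a mesenchymal list median of 0.16, against −1.24 and −0.76 on the other two *Wnt4*hi arrays, while its β-cell list median (0.65) was the highest of the 6. *Cd81* was highest on *Wnt4*low replicate 4, where the mesenchymal list was highest too (0.88). The part of these lists in the values of the 9 genes was not tested.

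**Figure D4:**
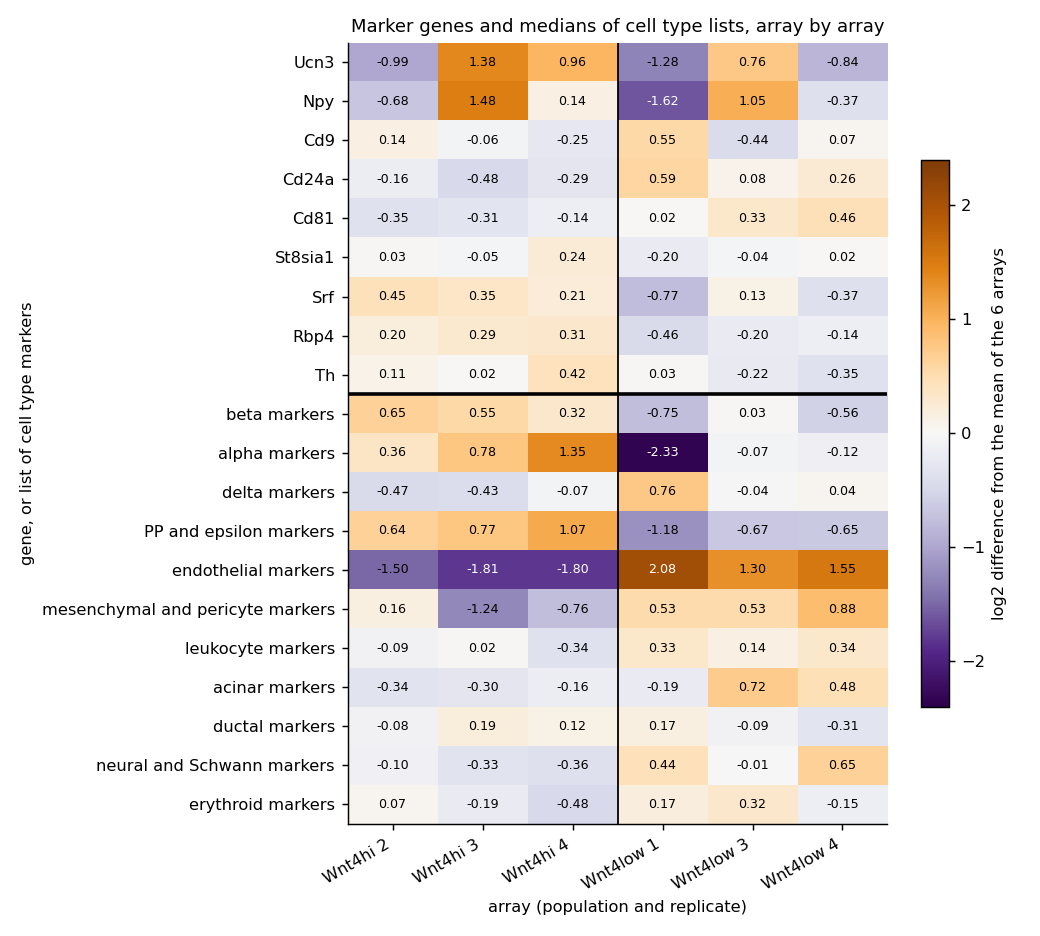
Log2 difference of each array from the mean of the 6 arrays, for the 9 genes (above the line) and as the median of each list of cell type markers (below the line), with *Wnt4*hi arrays on the left and *Wnt4*low arrays on the right. *Ucn3* and *Npy* share the highest array, *Wnt4*hi replicate 3 (1.38 and 1.48), and the endothelial list separates the populations most widely.

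The values were computed again under 18 alternatives (17 for *Cd9*), of which 12 changed the processing and 6 left out 1 array. *Rbp4*, *Cd24a* and *Cd81* kept their direction and passed the unadjusted threshold under 16 of the 18 each, and *Srf* kept its direction but passed under 9. None of the 9 genes had an adjusted p under 0.05 in any of them, the lowest being 0.141 for *Rbp4*. With 1 array left out, hardly any gene of the whole array passed the adjustment either. *St8sia1* and *Th* were above 0 and passed under none. *Ucn3* was above 0 under all and passed under 3, while *Npy* and *Cd9* changed sign under 1 and 2.

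**Figure D5:**
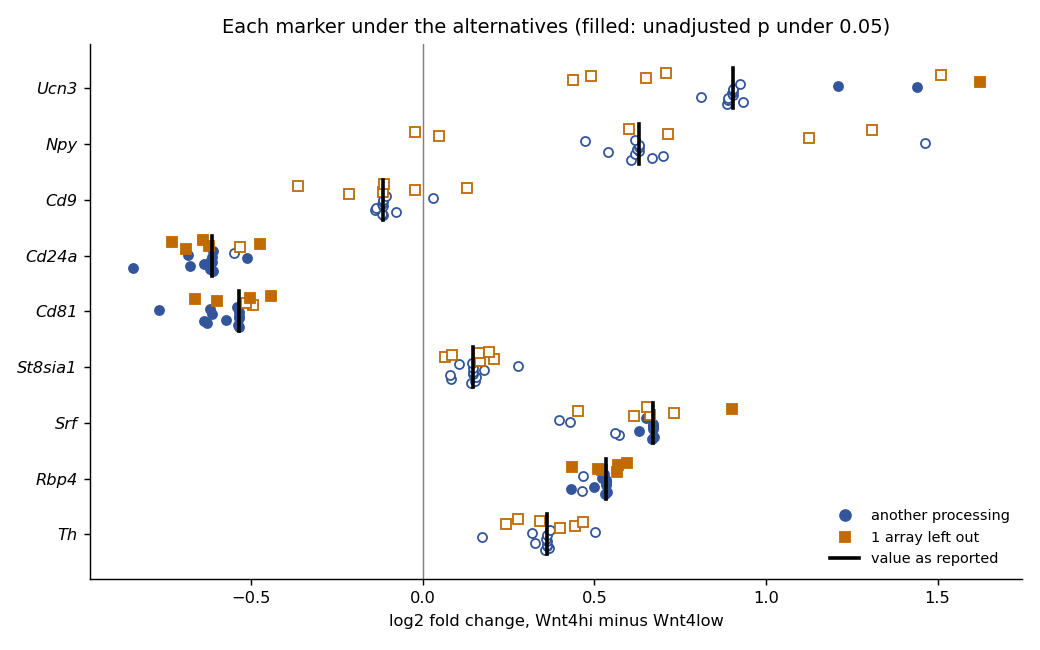
Log2 fold change of each gene as reported (black bar), under other processing (blue circles) and with 1 array left out (orange squares), filled where the unadjusted p was under 0.05. *Rbp4*, *Cd24a* and *Cd81* stay on 1 side of 0 with mostly filled points, and *Ucn3* and *Npy* spread over more than 1 log2 unit.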

How the data were processed

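The authors deposited the scanner output of 6 one-color (Cy5) arrays, with the median intensity of each spot and of its background, not normalized, and a table of their normalized log2 values, used as an alternative. The labels name Agilent Feature Extraction 9.1 and the file headers 12.0.1.1. Picogram amounts of RNA had been amplified before labelling. All arrays lay on 1 slide with 1 scan, so no batch could be tested, and nothing says that replicates came from separate litters, so p-values measure the spread between pools.

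Following the authors' methods, intensities were corrected with normexp (offset 50) and normalized by quantiles in limma 3.58.1 (R 4.3.3), without outlier spots (0 in the probes of the 9 genes). Probes were named through RefSeq genes of GRCm38.p6, and the probe with the highest mean stood for a gene. The populations were then compared by lmFit and eBayes without covariates, over 45616 genes and transcripts, and again over 56605 probes, for which probe-level p-values are given. The scripts were tested on simulated data. A bound for a gene not above background uses the lowest intensity well above background on each array. Precision is limited by the number of arrays.

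The 9 genes and all lists were chosen with earlier results of these data known. Named genes are all members and their direct partners, *Wnt4*, and of each list up to 3 adjusted genes and the 2 largest differences past the unadjusted threshold; where fewer are named, the counts stand for the list. *Crabp2* and *Ahsp* were not matched. Alternatives kept outlier spots, left out dim probes, averaged the probes of a gene, changed the background correction, the scaling or the variance model, took the authors' table, added the replicate number as a block, or left out 1 array.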

Additional observations from a re-analysis of the deposited data

How the results depend on the processing

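At the unadjusted threshold 4 of the 9 genes passed, and between 1 (without *Wnt4*hi replicate 3) and 4 passed when 1 array was left out. With the scanner's processed intensity, scaled by the 75th percentile, 2 passed (*Cd24a* and *Cd81*), the fixed replicate block also gave 2 (next paragraph), and the other 10 changes of processing gave 3 or 4. After adjustment 0 passed in limma under every alternative. Of all genes and transcripts, 201 passed the adjustment in the main fit, but only 0 to 9 with 1 array left out. Little can therefore be read from the absence of the 9 genes in those fits. With 1 array left out, *Npy* ranged from −0.024 (without *Wnt4*low replicate 1) to 1.31, and *Cd9* from −0.37 to 0.13 (without *Wnt4*low replicate 1). *Ucn3* passed the unadjusted threshold with the authors' table (1.44, limma, unadjusted p = 0.0303), in which 1 column stands apart. The column labelled *Wnt4*hi replicate 2 correlated less closely with its own scanner values (r = 0.870) than with those of some other arrays. These were *Wnt4*hi replicate 3 (r = 0.889), *Wnt4*hi replicate 4 (r = 0.885) and *Wnt4*low replicate 3 (r = 0.881). The other 5 columns followed their own array best. That table had no row for *Cd9*. The cause of these changes was not tested.

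Only the numbers 3 and 4 occur in both populations, and nothing says that they mark shared pools, so the replicate number was not taken as a pairing. Deviations from the population means correlated by −0.03 and 0.16 between arrays of the same number, and by −0.23 to 0.18 between unlike numbers. With so few arrays, these correlations cannot settle whether pools were shared. With the replicate block as a fixed term, which leaves the comparison to the 4 arrays numbered 3 and 4, 2 genes passed (*Ucn3*, 1.21, unadjusted p = 0.0193, and *Cd81*), *Cd9* was 0.029, and 0 genes of the whole array passed the adjustment. The SE fell with the fixed block for *Ucn3* (from 0.78 to 0.36) and *Npy* (from 0.81 to 0.24) and rose for every other gene of the set. With a random block, 4 genes passed.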

Other observations

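For each of the 9 genes, the genes whose log2 values ran most closely with it over the 6 arrays were sought among 16154 genes with a symbol that were well above background on every array. With 6 arrays on 1 slide, many genes reach a high r, so these are descriptions without a test. *Ucn3* ran closest to *Bhlhe41* (r = 0.99), a circadian repressor, followed by *Nsmce3* and *Stau1* (r = 0.99 each), and 32 genes had an r above 0.95. *Npy* ran closest to *Hopx* (r = 0.996), *Arnt2* and *Tmem220*, and *Cd9* to another tetraspanin, *Tspan11* (r = 0.983), followed by *Ccdc124* and *Cox4i1*. *Rbp4* ran closest to *Spint2*, an epithelial protease inhibitor (r = 0.994), and to *Ghrl* (r = 0.992), and *Srf* to *Tpd52* (r = 0.998), *Fam135a* and *Ptprn2*, the last a protein of secretory granules. For *Cd24a* the closest were *Fam102b*, *Fmnl3* and *Ddah1*, for *Cd81* *Lrrc58*, *Pid1* and *Bin2*, for *St8sia1* *Tomm20*, *Gm32973* and *Slc1a2*, and for *Th* *Gm10865*, *Sec11c* and *Unc119*. The largest numbers of genes with an r above 0.95 belonged to *Rbp4* (139) and *Srf* (114), and the smallest to *Npy* (18) and *Cd9* (20).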
